A study of Homo sapiens with 4 samples.

Results

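SQLE, NSDHL, HSD17B7, EBP and DHCR7 encode 5 enzymes of the route that turns squalene into cholesterol. Their transcripts were profiled in the human pancreatic cancer cell line RWP-1 on 4 single-channel whole-transcript arrays. The groups were cells given rGAL1 (arrays rGAL1 1 and rGAL1 2) and untreated cells, named Ctrl (arrays Ctrl 1 and Ctrl 2); rGAL1 is read here as recombinant galectin-1, a lectin, and the labels give no dose, duration or vehicle. All 4 arrays share the one cell line, and each used 100 ng of total RNA. The treatment entry of array rGAL1 2 reads as untreated, against its title and source name, so results are also given with that array left out or counted as Ctrl. The 5 genes are 5 of 14884 genes with a symbol on the array and were selected on their platform symbols and, among probe sets of a symbol, on the highest mean over the 4 arrays; each had exactly 1 probe set. The list itself was proposed with the rGAL1 minus Ctrl differences of these data known, so those differences are a description here and not independent evidence of a direction.

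Values are log2 expression from RMA, which corrects background, brings the arrays to a common scale and summarises the probes of a set. Array medians lay between 4.69 and 4.72. Nothing in the labels shows whether replicate arrays stem from different cultures, and the errors given here may therefore reflect technical spread alone. Over all 53617 probe sets, pairs of arrays from one group were as far apart (SD of their difference 0.29 for rGAL1 and 0.30 for Ctrl) as the 4 pairs from different groups (0.27 to 0.30). Of 7 measured pancreatic epithelial markers, KRT18 was the brightest (12.37 and 12.36 in rGAL1, against 12.38 and 12.44 in Ctrl) and KRT7 lay nearest the median probe set level of 4.70 (4.76 and 5.20 in rGAL1, against 5.37 and 5.36 in Ctrl). The fibroblast markers DCN and LUM lay below that level on each array. The leukocyte marker CD68, a lysosomal protein found in other cells too, measured 8.13 and 8.23 in rGAL1, against 7.71 and 7.88 in Ctrl. The other measured leukocyte markers, LYZ and CD14, were dimmer, with Ctrl means of 4.58 and 4.94.

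Cholesterol synthesis begins with acetyl-CoA, passes through the mevalonate arm to squalene, and ends with a series of oxidations, reductions and demethylations of the sterol ring on the endoplasmic reticulum. SREBP2, a transcription factor held in the endoplasmic reticulum when sterols are plentiful, drives the transcription of most genes of the route when membrane sterol falls. Squalene epoxidase, the product of SQLE, opens the part of the route that follows squalene. NSDHL and HSD17B7 work in turn with MSMO1 to strip methyl groups from the sterol ring, with ERG28 as a scaffold. EBP then moves a double bond within the ring, and DHCR7 reduces the last double bond of one of the 2 branches that end in cholesterol. Inherited loss of NSDHL, EBP or DHCR7 function causes disorders of development in humans.

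Transcripts of all 5 enzymes measured lower in rGAL1 cells than in Ctrl cells, by 1.16-fold to 1.30-fold. For each of the 5 genes the higher rGAL1 array was lower than the lower Ctrl array. Such a gene is called separated below Ctrl here (above, for the opposite case), and 17% of named genes were separated below. The median difference over the 5 genes was -0.28 log2 units (1.22-fold lower), against 0.0056 over all named genes. Across all probe sets 0 of 53617 passed an adjusted p under 0.05 in limma, which is 0%, and 2807 had an unadjusted p under 0.05, which is 5.24%. None of the 5 enzymes passed, with an adjusted p of 0.919 for each (limma); 3 of the 5 were lower at an unadjusted p under 0.05, as were 1.57% of named genes. An exact permutation test of 2 arrays against 2 cannot give a p below 0.333. In RNA from whole cultures, fewer expressing cells and less RNA per cell cannot be told apart.

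SQLE, which adds oxygen to squalene and is one of the rate-controlling enzymes of the route, measured 8.40 and 8.29 on the rGAL1 arrays, against 8.63 and 8.72 on the Ctrl arrays (log2). The group means were 8.34 ± 0.071 in rGAL1 and 8.68 ± 0.062 in Ctrl (SD, n = 2 each). The groups did not overlap, and the gap of 0.24 between them was wider than the distance of 0.10 between the rGAL1 arrays. The difference was -0.33 (SE 0.11, 95% interval -0.61 to -0.054, n = 2 each), or 1.26-fold lower in rGAL1. It was the second largest of the 5, and 1.65% of named genes had a difference as low or lower. The arrays numbered 1 differed by -0.24 and those numbered 2 by -0.43.

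NSDHL, the decarboxylating dehydrogenase of the demethylation steps, measured 8.95 and 8.89 on the rGAL1 arrays, against 9.12 and 9.14 on the Ctrl arrays (log2). Its means were 8.92 ± 0.047 in rGAL1 and 9.13 ± 0.013 in Ctrl (SD, n = 2 each). The Ctrl arrays were within 0.018 of each other, and both rGAL1 arrays lay 0.17 or more below them. Its difference of -0.21 (SE 0.10, 95% interval -0.47 to 0.045, n = 2 each) was the smallest of the 5, and 6.17% of named genes had one as low or lower.

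HSD17B7, the keto reductase that completes each round of demethylation and that can also convert oestrone to oestradiol, measured 5.08 and 4.89 on the rGAL1 arrays, against 5.26 and 5.28 on the Ctrl arrays (log2). The group means were 4.98 ± 0.13 in rGAL1 and 5.27 ± 0.014 in Ctrl (SD, n = 2 each). HSD17B7 was the dimmest of the 5 probe sets, only 0.57 above the median probe set level in Ctrl cells, a range in which RMA compresses differences. The distance between its rGAL1 arrays, 0.18, was as wide as the gap between the groups, 0.18. The difference was -0.28 (SE 0.11, 95% interval -0.58 to 0.014, n = 2 each), and it was -0.19 without rGAL1 2. A pseudogene with a similar sequence, HSD17B7P2, has its own probe set, and whether either probe set also picks up the other transcript was not tested. HSD17B7P2 measured 6.55 and 6.34 on the rGAL1 arrays, against 6.64 and 6.65 on the Ctrl arrays (log2), with the same order of arrays and a difference of -0.20 (SE 0.12).

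EBP, the sterol isomerase named for its binding of the drug emopamil, measured 7.63 and 7.59 on the rGAL1 arrays, against 7.87 and 7.89 on the Ctrl arrays (log2). Its means were 7.61 ± 0.030 in rGAL1 and 7.88 ± 0.016 in Ctrl (SD, n = 2 each). The arrays of each group were close to each other, at most 0.043 apart, while the groups were 0.24 apart. The difference was -0.27 (SE 0.098, 95% interval -0.53 to -0.017, n = 2 each), a 1.21-fold lower level.

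DHCR7, the reductase of dehydrocholesterol, measured 8.76 and 8.75 on the rGAL1 arrays, against 9.11 and 9.14 on the Ctrl arrays (log2). The group means were 8.75 ± 0.0076 in rGAL1 and 9.13 ± 0.023 in Ctrl (SD, n = 2 each). DHCR7 had the largest difference of the 5, -0.37 (SE 0.098, 95% interval -0.63 to -0.12, n = 2 each), or 1.30-fold lower, and 1.01% of named genes had one as low or lower. The arrays within a group were at most 0.032 apart, and the groups were 0.35 apart. The interval of DHCR7 overlapped those of the other 4 enzymes, and differences between the enzymes were not tested.

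**Figure D1:**
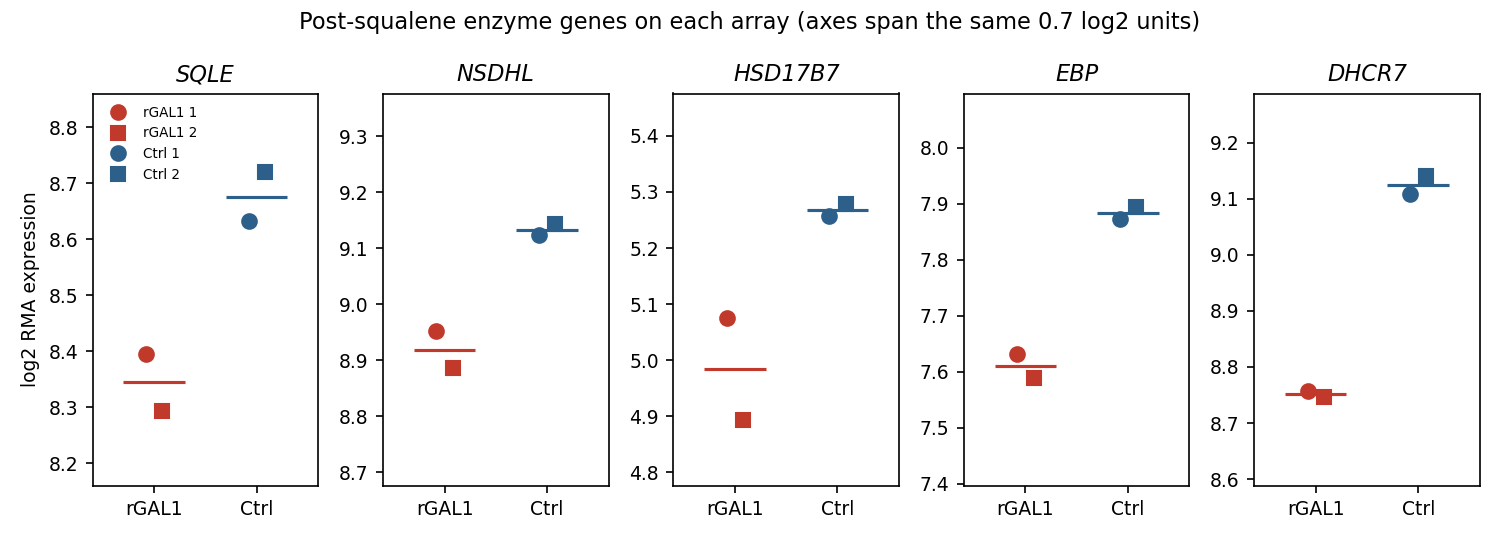
Log2 RMA expression of SQLE, NSDHL, HSD17B7, EBP and DHCR7 on each of the 4 arrays, with rGAL1 arrays in red on the left and Ctrl arrays in blue on the right of each panel. Circles are arrays numbered 1, squares are arrays numbered 2, and lines are group means (n = 2). In each panel both rGAL1 points lie below both Ctrl points, with rGAL1 2 lowest and Ctrl 2 highest.

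The 5 genes shared one order of the arrays. From low to high it ran rGAL1 2, rGAL1 1, Ctrl 1, Ctrl 2 in 5 of 5 genes, and this order was found in 4.64% of named genes. Any gene in this order is also separated below Ctrl, and 690 of the 2525 named genes separated below had this order. The list was proposed with the differences known, so the share over all named genes is not a like comparison. The mean profile of the 5 genes, with each gene centred on its own mean, was -0.11 and -0.19 on the rGAL1 arrays, against 0.13 and 0.17 on the Ctrl arrays. By replicate number, the median difference over the 5 genes was -0.24 for number 1 and -0.39 for number 2. The rGAL1 array with conflicting labels was the lowest of the 4 for each enzyme. Without it, when rGAL1 1 alone stands for the treatment, the differences ran from -0.37 in DHCR7 to -0.18 in NSDHL. With that array counted as Ctrl, the median difference was -0.15. Then 0 of 5 genes were separated, which was fixed in advance because that array was the lowest of the 4 for each enzyme.

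Promoters are shown for NSDHL, HSD17B7, EBP and DHCR7 (the window of SQLE is not used here). SREBP2 acts at promoters with partner factors, and its part in the differences measured here was not tested. The sequences are the 250 bases before the RefSeq start site in GRCh38.p14, read 5′ to 3′ on the gene's strand, and capitals mark the letters CCAAT on either strand, the core bound by NF-Y, a partner of SREBP2. For DHCR7 the RefSeq table lists 2 starts, and the first listed is shown.
NSDHL (chrX:152830813-152831062, plus strand): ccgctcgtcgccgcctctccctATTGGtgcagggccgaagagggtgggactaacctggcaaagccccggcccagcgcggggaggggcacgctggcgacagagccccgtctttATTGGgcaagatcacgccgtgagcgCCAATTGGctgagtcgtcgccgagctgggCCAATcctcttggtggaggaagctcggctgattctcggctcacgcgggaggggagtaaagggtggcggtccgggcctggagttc
HSD17B7 (chr1:162790452-162790701, plus strand): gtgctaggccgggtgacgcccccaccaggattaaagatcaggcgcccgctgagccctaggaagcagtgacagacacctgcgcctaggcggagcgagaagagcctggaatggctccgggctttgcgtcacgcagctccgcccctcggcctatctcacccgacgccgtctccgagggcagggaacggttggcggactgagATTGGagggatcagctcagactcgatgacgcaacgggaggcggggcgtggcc
EBP (chrX:48521558-48521807, plus strand): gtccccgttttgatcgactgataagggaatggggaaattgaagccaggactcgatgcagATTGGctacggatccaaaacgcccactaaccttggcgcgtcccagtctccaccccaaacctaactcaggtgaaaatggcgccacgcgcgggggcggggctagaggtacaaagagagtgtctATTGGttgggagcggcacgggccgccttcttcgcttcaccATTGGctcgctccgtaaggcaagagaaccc
DHCR7 (chr11:71448394-71448643, minus strand): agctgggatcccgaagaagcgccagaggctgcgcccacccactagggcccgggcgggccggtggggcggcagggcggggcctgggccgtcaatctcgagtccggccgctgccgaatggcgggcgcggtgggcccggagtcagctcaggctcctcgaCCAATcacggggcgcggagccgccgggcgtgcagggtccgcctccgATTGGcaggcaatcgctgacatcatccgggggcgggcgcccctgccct

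Each of the 4 windows held at least 1 match to CCAAT, as did 34.5% of 15842 protein-coding genes over windows of the same length. NSDHL had 5 matches, 2 of them overlapping on opposite strands from position -113 to -106 relative to the start. EBP had 3, DHCR7 had 2 and HSD17B7 had 1, from position -52 to -48. At least 2 matches were found in 11.6% of protein-coding genes. Of the other measured enzymes of the route, MSMO1 had 4 matches in its window, ERG28 had 3, TM7SF2 had 1 and LBR had 0. The letters GGGCGG, the core of the GC box bound by Sp1, matched 4 times in DHCR7, once each in HSD17B7 and EBP, and in no place in NSDHL, while 56.0% of protein-coding genes had a match. The letters TCACNCCAC, a form of the sterol regulatory element, were in none of the 4 windows and in 0.884% of those of protein-coding genes. The E-box letters CACGTG were also in none of the 4 and in 7.84% of protein-coding genes. These matches describe letters in a fixed window and are not binding sites.

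Among the other enzymes of the route, 4 were measured with a named probe set (LBR, TM7SF2, MSMO1 and ERG28). FDFT1, LSS, CYP51A1 and SC5D are not analysed here. Of the 4 measured, 3 were separated below Ctrl and 1 above; 17% of named genes were separated below and 20.2% above. Their median difference was -0.15 log2 units, and 0 passed in limma. MSMO1, the methyl sterol oxidase, measured 9.49 and 9.46 on the rGAL1 arrays, against 9.68 and 9.65 on the Ctrl arrays (log2), a difference of -0.19 (SE 0.098). ERG28 measured 9.08 and 9.14 on the rGAL1 arrays, against 9.27 and 9.31 on the Ctrl arrays, a difference of -0.18 (SE 0.10). NSDHL, HSD17B7, MSMO1 and ERG28, which act in the same demethylation steps, had differences of -0.28 to -0.18 log2 units; CYP51A1, which removes another methyl group, is among the genes not analysed.

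The step before demethylation, a reduction of the sterol ring, can be done by either of 2 enzymes, and their genes did not share a sign. TM7SF2, the more specialised sterol reductase, measured 6.79 and 6.66 on the rGAL1 arrays, against 6.81 and 6.90 on the Ctrl arrays (log2), a difference of -0.12 (SE 0.11) in which rGAL1 1 and Ctrl 1 were 0.013 apart. LBR, a reductase that also anchors chromatin to the nuclear lamina, measured 7.16 and 7.20 on the rGAL1 arrays, against 7.09 and 7.11 on the Ctrl arrays, a difference of 0.073 (SE 0.098, 95% interval -0.18 to 0.33). On the log2 scale these are differences within a probe set, and the difference between LBR and TM7SF2 was not tested.

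**Figure D2:**
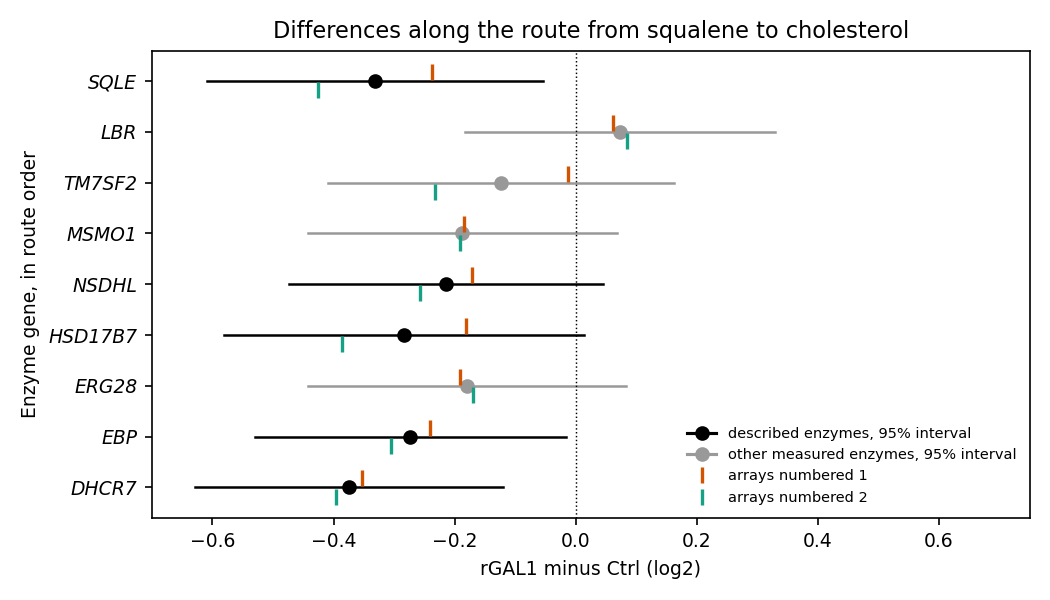
Differences of rGAL1 minus Ctrl (log2) for the 9 measured enzyme genes in route order, from SQLE at the top to DHCR7 at the bottom. Points are limma estimates with 95% intervals (n = 2 arrays per group), black for the 5 enzymes described and grey for the other 4, and ticks are the differences of the arrays numbered 1 and 2. LBR is the gene to the right of 0, and DHCR7 at -0.37 is the farthest to the left.

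Genes of the mevalonate arm, which feeds squalene synthesis, had a median difference of -0.30 over 7 measured genes. Of these, 6 of 7 were separated below Ctrl and 0 above, against 17% and 20.2% of named genes. Values of the mevalonate arm reached from -0.48 in ACAT2 to 0.028 in PMVK. Those of the 5 post-squalene enzymes, proposed with their differences known, ran from -0.37 to -0.21. The other 4 measured post-squalene enzymes ran from -0.19 to 0.073. IDI1, the isoprenoid isomerase, differed by -0.38 and MVD, a decarboxylase, by -0.36, close to DHCR7. Genes of SREBP control and uptake had a median of -0.13 over 6, with 4 separated below and 0 above. In this list INSIG1, which retains SREBP in the endoplasmic reticulum, differed by -0.47, while INSIG2 differed by 0.00034 and SCAP, the escort of SREBP, by 0.030. The gene of SREBP2 itself, SREBF2, measured 7.83 and 7.92 on the rGAL1 arrays, against 7.98 and 8.03 on the Ctrl arrays (log2), a difference of -0.13 (SE 0.10). None of these 13 genes passed in limma.

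Of 14 measured relatives of the 5 enzymes by family, 7 had lower and 7 higher means in rGAL1, as did 7191 and 7693 of all named genes. Of the 14, 2 were separated below Ctrl and 5 above (17% and 20.2% of named genes), with a median of 0.0063. Within the dehydrogenase family of HSD17B7, HSD17B12, an enzyme of fatty acid elongation, was separated below (-0.20, SE 0.097), and HSD17B4, HSD17B6, HSD17B8, HSD17B11 and HSD17B13 were separated above. HSD17B6 had the largest of these, 0.41 (SE 0.18), at 5.03 and 4.71 on the rGAL1 arrays, against 4.62 and 4.30 on the Ctrl arrays, with a Ctrl mean of 4.46 and a mean over the 4 arrays of 4.67, below the median probe set level of 4.70. HSD17B13 lay below that level in both groups. Among relatives of EBP, EBPL, which lacks isomerase activity, differed by -0.086 (SE 0.12) with overlapping groups. TMEM97, an endoplasmic reticulum protein of the same fold, measured 8.21 and 8.14 on the rGAL1 arrays, against 8.33 and 8.36 on the Ctrl arrays (log2), a difference of -0.17 (SE 0.10). None of the 14 passed in limma.

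Genes for electron supply, enzyme turnover and the fate of sterols had list medians of -0.020 to 0.075. Of 5 measured electron donors and helpers, 1 was separated below and 1 above (17% and 20.2% of named genes), with the lowest of these medians. CYB5R3, which feeds electrons to the sterol oxidases through cytochrome b5, differed by -0.035 (95% interval -0.30 to 0.23). Of 5 genes of enzyme turnover in the endoplasmic reticulum, 0 were separated below and 1 above, with a median of 0.043. FAF2, which helps extract proteins from the membrane for degradation, differed by 0.052 (SE 0.11), and VCP, the ATPase of that extraction, by 0.0010 (SE 0.10). Of 8 measured genes of sterol storage, oxysterol sensing and LXR response, 1 was separated below and 4 above, with a median of 0.075. The 4 above were SOAT2, CH25H, OSBP and NCEH1, of which CH25H lay below the median probe set level in both groups. The LXR targets ABCA1 and ABCG1 are not analysed here. SOAT1, which esterifies cholesterol for storage, measured 8.35 and 8.20 on the rGAL1 arrays, against 8.25 and 8.05 on the Ctrl arrays (log2), a difference of 0.12 (SE 0.12) with overlapping groups. MYLIP, an LXR target that directs the LDL receptor to degradation, was the gene separated below, with a difference of -0.12 (SE 0.10). None of these 18 genes passed in limma.

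**Figure D3:**
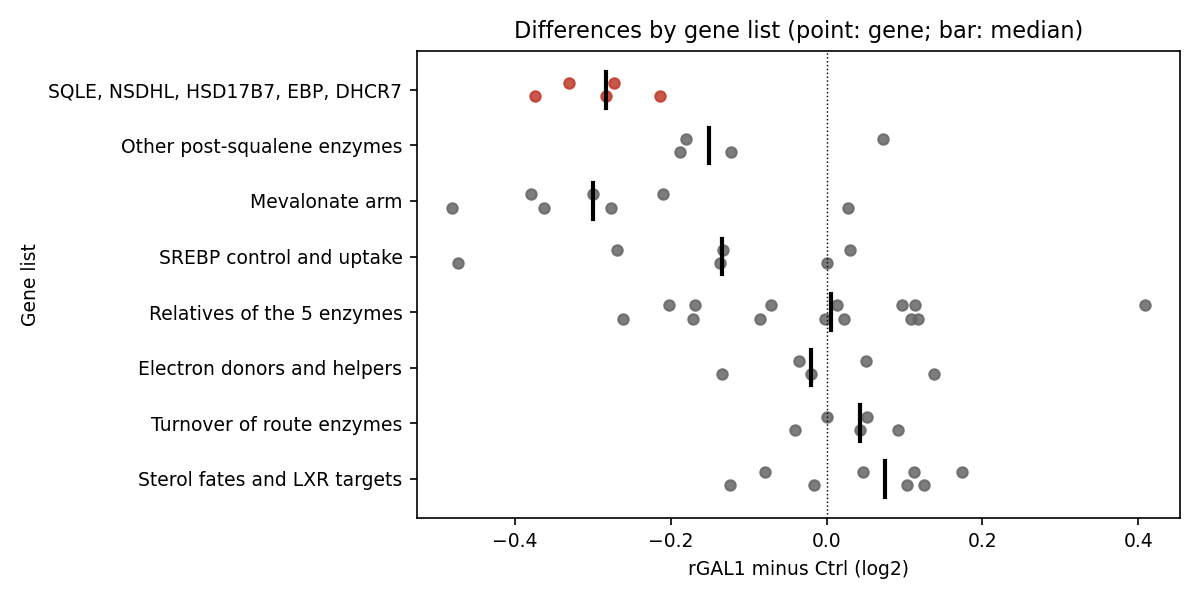
Differences of rGAL1 minus Ctrl (log2) for each measured gene of the 5 post-squalene enzymes (red, top) and of 7 related gene lists (grey). Points are genes and bars are list medians. The medians are -0.28 for the 5 enzymes and -0.30 for the mevalonate arm, and those of the last 4 lists lie between -0.020 and 0.075.

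None of the measured markers of cell identity passed in limma. Separation is given here beside the shares over all named genes, 17% below and 20.2% above. Of 7 measured epithelial markers 4 were separated below Ctrl and 1 above, with a median of -0.053, and their summed log2 level was 62.1 and 62.5 on the rGAL1 arrays, against 62.8 and 63.1 on the Ctrl arrays. KRT7 had the largest difference of the 7, -0.38 (SE 0.17). Of 3 leukocyte markers 0 were separated below and 2 above, with summed levels of 17.7 and 17.7 on the rGAL1 arrays, against 17.1 and 17.5 on the Ctrl arrays. CD68 differed by 0.39 and CD14 by 0.10. LYZ differed by -0.11 with overlapping groups, and its Ctrl mean of 4.58 lay below the median probe set level. Of 3 acinar markers 1, CTRB1, was separated above, with summed levels of 14.7 and 15.1 on the rGAL1 arrays, against 14.4 and 13.9 on the Ctrl arrays. CTRB1 measured 5.44 and 5.81 in rGAL1, against 5.16 and 4.87 in Ctrl, a difference of 0.61 (SE 0.18). It was dim, with a Ctrl mean 0.31 above the median probe set level. CPA1 differed by 0.12 and PNLIP by -0.0057, both with overlapping groups. Of 4 endocrine markers 0 were separated, with summed levels of 20.2 and 19.7 on the rGAL1 arrays, against 20.6 and 20.0 on the Ctrl arrays. Of the 2 fibroblast markers 1 was separated below and 1 above, with summed levels of 6.48 and 6.24 on the rGAL1 arrays, against 6.28 and 6.27 on the Ctrl arrays. The part of these markers in the values of the sterol enzymes was not tested.

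The differences of the 5 enzymes stood in the lower tail of all named genes, with DHCR7 the farthest out. There were 151 named genes with a difference at or below that of DHCR7 and 918 at or below that of NSDHL, of 14884. For 4 of the 5 genes, all but HSD17B7, the gap between the groups was wider than the larger within-group distance, as it was in this direction for 4.94% of named genes.

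**Figure D4:**
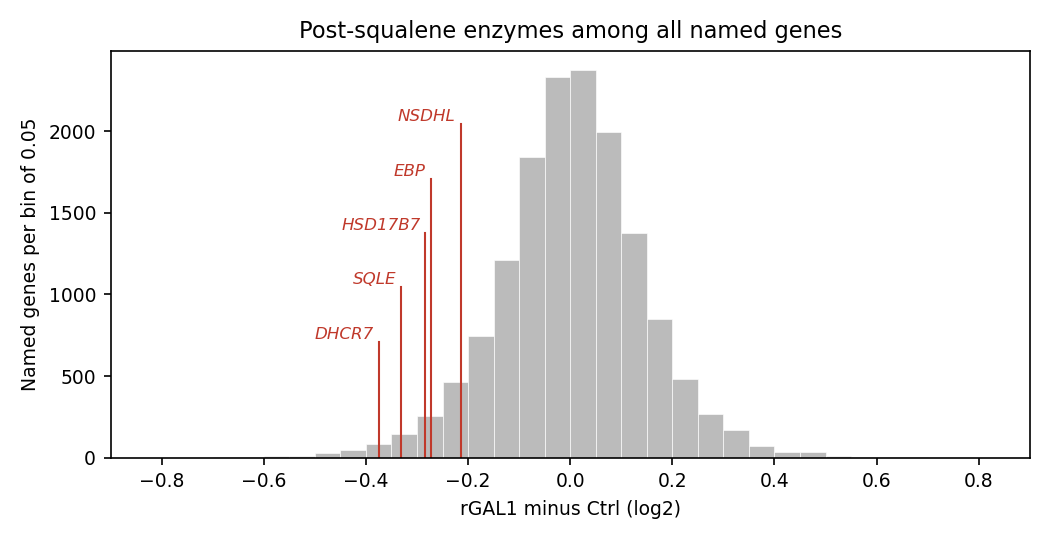
Histogram of rGAL1 minus Ctrl (log2) over 14884 named genes in bins of 0.05, with the 5 post-squalene enzymes marked in red. Line heights carry no value. The markers run from -0.37 for DHCR7 to -0.21 for NSDHL, left of the median of all named genes at 0.0056.

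Genes with the most similar pattern were found by the root mean square distance between centred log2 values over the 4 arrays, among 10679 other named genes above the median probe set level. The nearest to the mean profile of the 5 enzymes were BCL2L15 at 0.0091, VEGFA at 0.011, GAGE12H at 0.012, LCN6 at 0.014, PYDC1 at 0.016 and ZNF33A at 0.018 log2 units. The enzymes themselves, which make up that profile, lay at 0.018 (EBP) to 0.047 (DHCR7), and 65 other genes lay at 0.047 or nearer. The nearest gene was BNIP3L for SQLE, DPP3 for NSDHL, TMEM215 for HSD17B7, PYDC1 for EBP and LOC155060 for DHCR7, at 0.0048 to 0.017. GAGE12H and PYDC1 were dim, with Ctrl means 0.49 and 0.31 above the median probe set level, against 0.57 for HSD17B7. Over 4 arrays such nearness is a description with few points.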

How the data were processed

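Total RNA of RWP-1 cells was measured on 4 whole-transcript arrays. The deposited values are log2 expression per probe set; the submitters' processing notes list RMA and limma, without versions or settings. No sample column was left unused. Of 53617 probe sets, 16098 carried 1 symbol in the platform annotation and 37519 none; all 16098 matched a current Entrez record, and a gene with several was represented by its brightest probe set. No build of the array design was given, so gene coordinates are shown only for promoter windows of GRCh38.p14.

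Groups and numbers came from the titles. All probe sets were fitted with limma 3.58.1 in R 4.3.3 (lmFit, eBayes, no block, 2 residual and 2.75 prior degrees of freedom), and two-sided p-values were adjusted by the Benjamini-Hochberg method over 53617 probe sets. Precision is limited by the number of arrays, with a median SE of 0.13 log2 units. The fit was tested on simulated data. Intervals are 95% from the moderated fit and are not adjusted. A gene is separated where the 2 groups do not overlap. Named genes are the 14884 with a symbol. By rule, the text gives single values for the 5 enzymes, measured members of the lists and the nearest genes by pattern. Members and lists were chosen with earlier results of these data known. The labels do not say that a number marks a shared culture or day, so the numbers were not taken as pairs. Across probe sets, the deviations of the rGAL1 and Ctrl arrays of one number had r = -0.048, which does not settle the pairing. Alternatives varied the prior, block, filter, normalization, probe set choice and arrays.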

Additional observations from a re-analysis of the deposited data

How the results depend on the processing

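All settings were planned. The 5 enzymes kept a negative difference in each of 13 alternatives, but in most of these the sign could not change. The block, prior, filter and averaging settings left the estimates as they were. Leaving out 1 array cannot reverse a gene whose groups do not overlap. Only centring, renewed quantile normalization and counting rGAL1 2 as Ctrl could have changed the sign. In refits with 2 arrays per group, none of the 5 passed an adjusted p under 0.05 in limma (0.562 or more, the smallest for DHCR7 when the prior followed intensity). The count of probe sets past the threshold was 0 in each refit, the replicate block included (0, with a median difference of -0.28 for the 5 enzymes), and 0 to 0 without 1 array; an unadjusted p under 0.05 gave 2807, by construction more. Leaving out 1 array gave a median of -0.38 to -0.25 for the 5 enzymes and -0.17 to -0.12 for the other post-squalene enzymes. All 5 enzymes stayed separated, as genes separated on the 4 arrays must when 1 is left out. By gene, leaving out 1 array gave -0.38 to -0.28 for SQLE, -0.25 to -0.18 for NSDHL, -0.38 to -0.19 for HSD17B7, -0.29 to -0.25 for EBP and -0.39 to -0.36 for DHCR7. Counting rGAL1 2 as Ctrl gave medians of -0.15 for the 5 enzymes and -0.050 for the other post-squalene enzymes. Then 0 and 1 genes were separated below. The 0 was fixed in advance, because rGAL1 2 was the lowest array for each of the 5 enzymes. With this array counted as Ctrl, HSD17B7 was -0.067 and NSDHL -0.098. Such fits leave 1 array in a group, which is assumed to vary like the other group. Centring the arrays on their medians left 2 of the other 4 enzymes separated below Ctrl. Averaging probe sets changed nothing for the 5 enzymes and the other 4, since each had 1, and was not run for other genes. The dim signal of HSD17B7 limits what its value can show.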
